A study of Mus musculus with 69 samples.

Results

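The lungs described here came from mice that were given vehicle alone by instillation into the airways and were examined 1 or 28 days later. They were chosen by their labels, and they make up 9 of the 69 arrays of the series, 5 from day 1 and 4 from day 28. All mice were female C57BL/6, obtained at 5 to 7 weeks of age and kept for 1 to 3 weeks before exposure. The vehicle is labelled H2O, whereas the design text gives the particle dispersions as made in 2% serum in water. The other 60 lungs received 18, 54 or 162 ug of the titanium dioxide particles NRCWE-001 or NRCWE-002, with 5 lungs in each of 12 groups. Lungs that were never instilled are not part of the groups, so the time since instillation and the age of the mouse cannot be told apart.

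Lung is built of alveoli, where flat type 1 cells exchange gas and type 2 cells make surfactant, and of airways lined by secretory and ciliated cells, with resident macrophages, lymphocytes and a dense capillary bed between them. Instilled fluid is itself a disturbance that brings a brief inflammatory reaction, and vehicle lungs are the baseline against which any particle effect is read. A comparison of vehicle lungs over time therefore shows how steady that baseline was and which genes differed most between animals given vehicle alone.

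On each array, lung RNA was labelled with one dye and a common mouse reference RNA with the other, so a value is the log2 ratio of lung to reference. A value of 1 is a level 2-fold above that of the same gene in the reference, and levels of different genes cannot be ranked by it. Between 62.9% and 72.8% of probes on the 9 vehicle arrays were well above background in the lung channel. Markers that define lung were far above the reference in all 9 arrays. Sftpc, which encodes a surfactant protein of type 2 cells, had log2 ratios of 7.25 to 8.27. Ager, a marker of type 1 cells, had log2 ratios of 5.39 to 5.96, and Scgb1a1, made by airway secretory cells, had log2 ratios of 5.97 to 7.53. Each vehicle array lay on a slide of its own, together with 2 or 3 exposed lungs of the same day, so day and slide are separated only through slides that hold exposed lungs of both days. Lung 2 of day 28 stood apart, with correlations across 17639 genes of 0.918 to 0.953 to the other vehicle lungs, which correlated at 0.972 to 0.990 among themselves. Its reference channel had 53.1% of probes well above background, the lowest of the 9 arrays. The 3 exposed lungs on the same slide had 55.9%, 51.0% and 49.7%. For this array, traits of the lung and of its slide cannot be told apart.

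No gene differed between day 28 and day 1 in vehicle lungs by limma at an adjusted p of 0.05, so the share of the 17639 genes called was 0%. At an unadjusted p of 0.05 there were 889 genes, or 5.04%, of which 445 were higher and 444 lower on day 28. The 4 lungs of day 28 and the 5 of day 1 did not overlap for 592 genes, or 3.36%, with 340 genes (1.93%) higher and 252 (1.43%) lower on day 28. The median absolute difference was 0.085 on the log2 scale, and 2 genes differed by more than 2-fold, both lower on day 28. The 95% interval of a gene's difference reached 0.245 to either side at the median gene. The numbers of lungs limit this precision, and the interval is unadjusted, so it is no limit of detection. Without lung 2 of day 28, 261 genes passed the unadjusted threshold, and still none was called.

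The 5 genes with the smallest p in each direction are given by their values, since none passed the adjusted threshold. Plcb1, which encodes a phospholipase C that acts downstream of G protein coupled receptors, had log2 ratios of 0.51, 0.91, 0.91, 0.97 and 0.66 on day 1 and of 1.43, 1.43, 1.45 and 1.40 on day 28. All lungs of day 28 lay above all lungs of day 1, and the day 28 lungs were almost equal. The difference was 0.64 ± 0.14 (SE), with a limma adjusted p of 0.40, and all 3 Plcb1 probes were higher on day 28, by 0.64, 0.50 and 0.35. With slide as a fixed term the difference of Plcb1 was 0.42. In the 18 ug lungs (n = 10 on each day) the difference of Plcb1 was 0.090 ± 0.094 (SE).

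Rcan1, an inhibitor of calcineurin, had log2 ratios of 0.15, 0.33, 0.040, 0.041 and 0.16 on day 1 and of 0.57, 0.56, 0.62 and 0.29 on day 28. The groups overlapped through lung 4 of day 28 and lung 2 of day 1. The difference was 0.36 ± 0.10 (SE; limma adjusted p = 0.92), and 0.33 with slide as a fixed term. In the 18 ug lungs Rcan1 rose by 0.30 ± 0.068 (SE; limma adjusted p = 0.013).

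Casp8, the initiator caspase of death receptor signalling, had log2 ratios of -0.77 to -0.42 on day 1 and of -0.23, 0.61, -0.27 and -0.23 on day 28. The groups did not overlap, but lung 2 of day 28 lay far above the other 3, and without it the difference went from 0.61 to 0.39. Dync1i2, a subunit of the motor protein dynein, had log2 ratios of -0.35 to -0.044 on day 1 and of 0.075, 0.55, -0.014 and 0.059 on day 28. With slide as a fixed term its difference of 0.40 became 0.044, and that of Casp8 became 0.14. Igsf21 was well above background on 1 lung of each day only, and its difference of 0.29 was -0.011 when scanner signals were centred on the median.

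Cyp1a1 had the largest difference among the genes lower on day 28 apart from Xist. It encodes a monooxygenase that oxidises aromatic hydrocarbons, and its transcription is switched on by the aryl hydrocarbon receptor. Its log2 ratios were 1.501, 1.97, 1.63, 1.90 and 1.86 on day 1 and 1.34, -0.041, 0.96 and 0.76 on day 28. All lungs of day 28 lay below all lungs of day 1, and the day 28 lungs were spread more widely. The difference was -1.02 ± 0.25 (SE), with a 95% interval from -1.51 to -0.53 and a limma adjusted p of 0.66. It was -1.03 with slide as a fixed term and -0.75 without lung 2 of day 28.

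Gcat, a mitochondrial enzyme of threonine breakdown, had log2 ratios of -1.49, -1.96, -1.91, -1.89 and -1.46 on day 1 and of -1.998, -2.80, -2.35 and -2.12 on day 28. The groups did not overlap, by a gap of 0.040 between the closest lungs. The difference was -0.58 ± 0.15 (SE; limma adjusted p = 0.92). Letm2, which encodes a mitochondrial inner membrane protein, had log2 ratios of 0.095 to 0.48 on day 1 and of -0.18 to -0.065 on day 28, a difference of -0.40 ± 0.090 (SE; limma adjusted p = 0.40). The transcript 1190005I06Rik was lower by -0.44 ± 0.12 (SE; limma adjusted p = 0.92), with all lungs of day 28 below those of day 1. With slide as a fixed term the differences were -0.33 for Gcat, -0.38 for Letm2 and -0.25 for 1190005I06Rik. Without lung 2 of day 28 that of Gcat was -0.41. In the 18 ug lungs the mean of Letm2 went from 0.25 on day 1 to 0.082 on day 28 with NRCWE-001. With NRCWE-002 it went from 0.28 to 0.17. At 162 ug of NRCWE-001 the mean of Letm2 was higher on day 28, at 0.15 against 0.028.

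**Figure D1:**
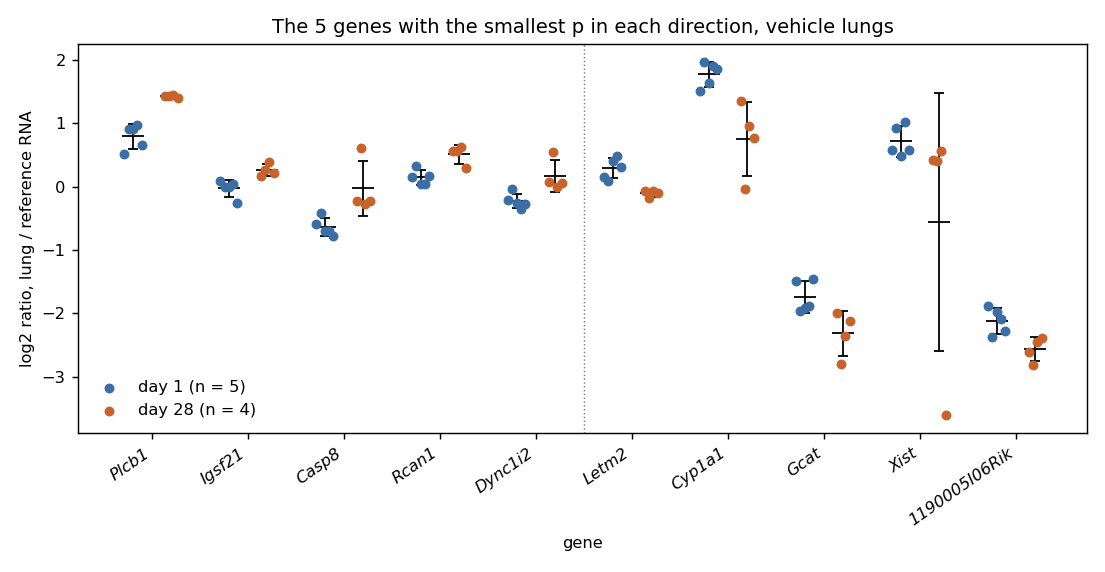
Log2 ratios of lung to reference RNA (vertical axis) of the 5 genes with the smallest p in each direction (horizontal axis, higher on day 28 left of the dotted line) in the 9 vehicle lungs, with 1 point per lung and lines for the mean ± SD. The 4 Plcb1 values of day 28 sit between 1.40 and 1.45, above all 5 of day 1, and a single day 28 lung at -3.61 sets the spread of Xist.

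Only lungs 3 of day 28 and 4 of day 1 were scanned on the same day. Between that pair, with 1 lung on each side, the differences in log2 units and day 28 minus day 1 were 0.48 for Plcb1, 0.35 for Igsf21, 0.43 for Casp8, 0.57 for Rcan1, 0.34 for Dync1i2, -0.54 for Letm2, -0.94 for Cyp1a1, -0.46 for Gcat, -0.46 for Xist and -0.36 for 1190005I06Rik. These lungs were among those by which the 10 genes were chosen, so the values are a description only.

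The exposed lungs give a larger comparison of the same days. They received particles, so their difference between days also holds any change in the response to particles. In the 18 ug lungs 199 of 17639 genes, or 1.13%, were called by limma, 71 higher (0.403%) and 128 lower (0.726%) on day 28. Of the 71, 51 had a positive difference in vehicle lungs, beside 51.6% of all genes, and 6 were separated the same way there, beside 1.93%. Of the 128, 111 had a negative difference in vehicle lungs, beside 48.4% of all genes, and 10 were separated the same way, beside 1.43%. The median vehicle difference was 0.11 for the former and -0.12 for the latter, against 0.40 and -0.31 in the 18 ug lungs. Vehicle and 18 ug lungs share no animals, but an 18 ug lung of the same day lay on every slide that held a vehicle lung. On the 9 slides without a vehicle array, 3 genes were called for the 18 ug lungs, all 3 higher on day 28 and 0 lower, with 6 lungs of day 28 and 5 of day 1. Cyp1a1 and Gcat were not called there at 18 ug, with limma adjusted p of 0.59 and 0.37. The part of slide in the shared direction was not tested.

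Cyp1a1 was lower by -0.70 ± 0.16 (SE; limma adjusted p = 0.018) in the 18 ug lungs, and Gcat by -0.54 ± 0.099 (SE; limma adjusted p = 0.0016). On the slides without a vehicle array the mean over all doses and both particles was -0.67 for Cyp1a1 (limma adjusted p = 0.0049) and -0.45 for Gcat (limma adjusted p = 0.00013), with 19 exposed lungs of day 28 and 15 of day 1. With slide as a fixed term on those slides the differences were -0.73 and -0.46, and neither was called (limma adjusted p = 0.19 and 0.12). In every one of the 7 pairs of groups the mean of both genes was lower on day 28. Both genes were chosen by their vehicle values, so only the exposed pairs add information. The vehicle lungs of day 1 had the highest Cyp1a1 mean of the 14 groups, at 1.77 ± 0.20 (SD, n = 5), and those of day 28 had 0.76 ± 0.58 (SD, n = 4). Other genes known as targets of the aryl hydrocarbon receptor were chosen after the Cyp1a1 values were seen. Vehicle differences were -0.094 for Cyp1b1, 0.017 for Ahrr, -0.19 for Nqo1 and 0.28 for Tiparp. Cyp1a2 and Aldh3a1 were also tested, without their values being given here, and none of these genes was called.

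**Figure D2:**
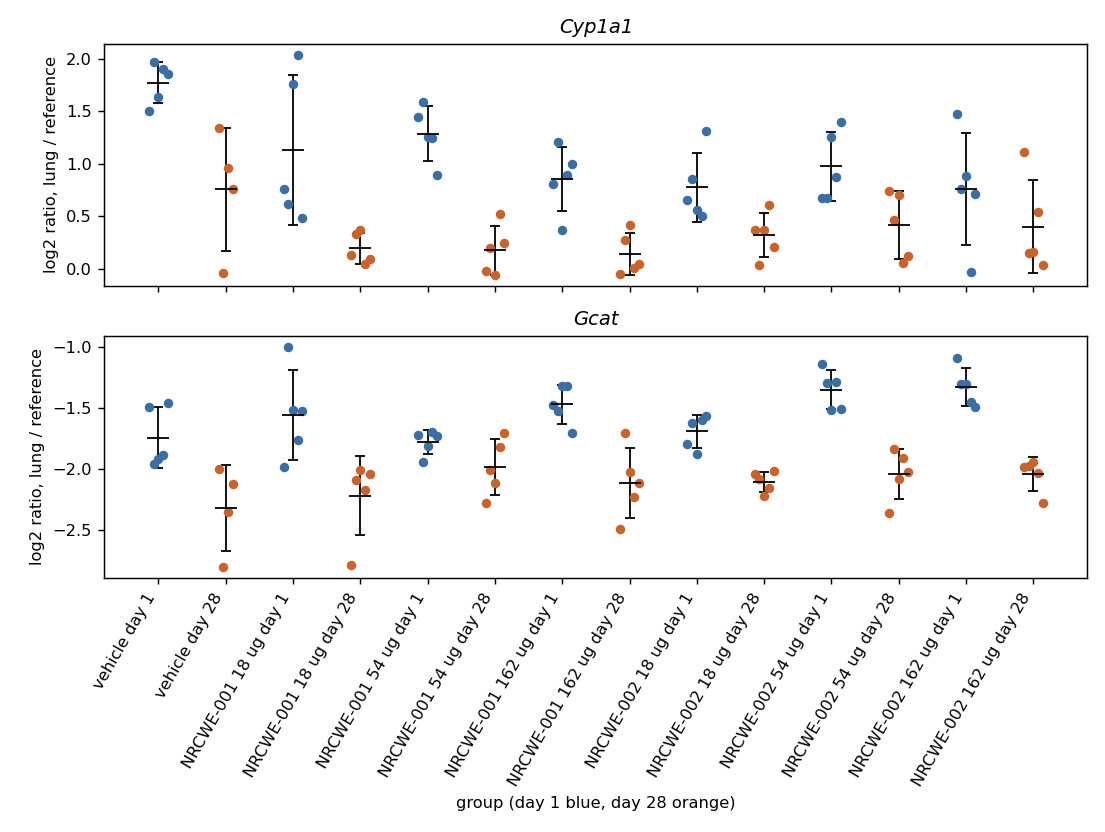
Log2 ratios of lung to reference RNA (vertical axes) of Cyp1a1 and Gcat in the 14 groups (horizontal axis), with 1 point per lung, blue for day 1 and orange for day 28, and lines for the mean ± SD. In each pair of groups the day 28 mean lies below the day 1 mean, from 1.77 to 0.76 for Cyp1a1 in the vehicle lungs. Both genes were chosen by the vehicle pair.

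The difference between days was also set against that of the 18 ug lungs gene by gene. No gene was called for a difference in day effect by limma, and 470 passed an unadjusted p of 0.05. The smallest p belonged to Hspa1a, an inducible heat shock chaperone, named here after its values were seen. Its log2 ratios in vehicle lungs were 0.97, 0.59, 0.86, 0.92 and 1.13 on day 1 and 0.80, 0.050, 1.203 and 0.75 on day 28, so the days overlapped. Its vehicle difference was -0.19, whereas in the 18 ug lungs it rose by 1.05 (limma adjusted p = 4.1e-06), the mean of a difference of 1.68 with NRCWE-001 and one of 0.40 with NRCWE-002. The limma adjusted p for the gap of -1.24 was 0.18. With slide as a random term that p was 0.031, and without lung 3 of day 28 it was 0.038. Of the 15 tested genes of the heat shock list, 7 were called higher on day 28 in the 18 ug lungs, where 0.403% of all genes were called higher. The vehicle comparison has fewer lungs. With all lungs kept and no slide term, no heat shock gene was called for the difference in day effect.

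Gene lists were described by counts and medians, beside a median difference of 0.0048 over all genes. The 36 lists held 506 tested genes, none of which was called. At an unadjusted p of 0.05, 13 were higher and 5 lower on day 28, beside 2.52% of all genes in each direction. Whole lung was measured, so fewer cells of a type and less RNA per cell cannot be told apart.

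The lists of lymphoid and antigen presenting cells had positive medians. All 8 tested genes of the MHC class II list, which presents antigen to helper T cells, had positive differences, with a median of 0.29. Its master regulator Ciita had log2 ratios of 3.38, 3.09, 3.13, 3.56 and 2.44 on day 1 and of 3.99, 3.56, 3.47 and 3.88 on day 28. The days overlapped, and the difference was 0.60 ± 0.32 (SE; limma adjusted p = 0.92). All 11 natural killer cell genes (median 0.18) and all 10 B cell genes (median 0.14) also had positive differences. Gzmb, a protease of cytotoxic granules, differed by 0.48 and Cd22, an inhibitory co-receptor on B cells, by 0.28, both with overlapping groups. Without lungs 5 of day 1 and 1 of day 28 these medians were 0.13 for MHC class II, 0.028 for natural killer cells and 0.063 for B cells. The T cell list had 11 of 13 genes with positive differences and a median of 0.098. By mean deviation from the vehicle mean, B cell genes spanned -0.32 to 0.38 on day 28 and -0.20 to 0.21 on day 1. Natural killer cell genes spanned -0.29 to 0.365 on day 28 and -0.28 to 0.24 on day 1. For T cell genes the spans were -0.19 to 0.19 and -0.088 to 0.039. In these lists both the highest and the lowest vehicle lung were of day 28. MHC class II genes spanned -0.063 to 0.42 on day 28 and -0.46 to 0.090 on day 1.

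Erythroid and platelet genes had a median of 0.21, beside -0.014 in the 18 ug lungs. In vehicle lungs 4 of 11 passed the unadjusted threshold, all higher on day 28, beside 2.52% of all genes. Slc4a1, the anion exchanger of the red cell membrane, had log2 ratios of 1.52, 0.90, 1.11, 1.57 and 1.08 on day 1 and of 1.84, 2.64, 1.63 and 2.35 on day 28. All day 28 lungs lay above those of day 1, and the difference was 0.88 ± 0.32 (SE; limma adjusted p = 0.92). Bpgm, which makes the red cell effector 2,3-bisphosphoglycerate, differed by 0.54 with overlapping groups.

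Genes of fatty acid oxidation and ketone synthesis had a median of 0.20, and of 0.010 with slide as a fixed term. In the 18 ug lungs their median was -0.012. In vehicle lungs 3 of 16 passed the unadjusted threshold, all higher on day 28, beside 2.52% of all genes. Cpt1a, which admits fatty acids to mitochondria, differed by 0.46 and its partner carrier Slc25a20 by 0.39, and lung 2 of day 28 had the highest value of both. Interferon stimulated genes had a median of 0.17, with 19 of 22 positive and 3 separated by day, all higher on day 28, beside 1.93% of all genes, among them the antiviral gene Rsad2 (0.47). In the unfolded protein list the median was 0.13, and 0.030 without lung 2 of day 28. Chac1, which degrades glutathione, had log2 ratios of -2.46 to -2.17 on day 1 and of -2.97 to -2.61 on day 28, a difference of -0.54 ± 0.16 (SE; limma adjusted p = 0.92) with no overlap. Xbp1, a transcription factor of the same response, differed by 0.43 in the opposite direction.

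For inflammatory lists the median differences were -0.082 for chemokines and cytokines, -0.039 for neutrophil genes, -0.054 for monocyte and macrophage genes, -0.027 for alveolar macrophage genes and 0.10 for acute phase genes. With scanner signals centred on the median, the neutrophil, monocyte and alveolar macrophage medians were positive, at 0.059, 0.074 and 0.27. With slide as a fixed term, the chemokine and cytokine median was 0.24, the monocyte and macrophage median 0.19 and the acute phase median 0.42. Lrg1, a secreted acute phase glycoprotein, had the smallest p of the acute phase list and differed by 0.53. The median was 0.055 for 30 genes of cell proliferation, 0.063 for extracellular matrix and -0.0061 for imprinted growth genes. Lists of lung epithelium had medians of 0.034 for type 2, 0.028 for type 1, 0.042 for airway secretory and 0.0097 for ciliated cells. The endothelial median was 0.014, though Flt1, a receptor for vascular endothelial growth factor, differed by -0.35. Smooth muscle genes had a median of 0.00012, with Lmod1 (-0.53) and Pdgfrb (-0.41) past the unadjusted threshold, and lung 2 of day 28 was lowest for both. Heat shock genes had a median of 0.097 in vehicle lungs, and Hspa8, a constitutive chaperone, differed by 0.59. The remaining medians were 0.12 for glucocorticoid, 0.065 for immediate early, -0.050 for clock, 0.13 for mast cell and basophil, 0.026 for plasma cell, -0.048 for mesothelial, -0.067 for skeletal muscle, -0.040 for adipocyte, -0.0090 for sterol and fatty acid synthesis, 0.031 for Nrf2 target, 0.037 for complement and 0.13 for nuclear transcript lists. With slide as a fixed term, 12 of the 36 list medians changed sign, among them airway secretory (-0.73), glucocorticoid (-0.14), type 1 (-0.12), mesothelial (0.11) and nuclear transcript (-0.12), and the skeletal muscle median was -0.96.

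**Figure D3:**
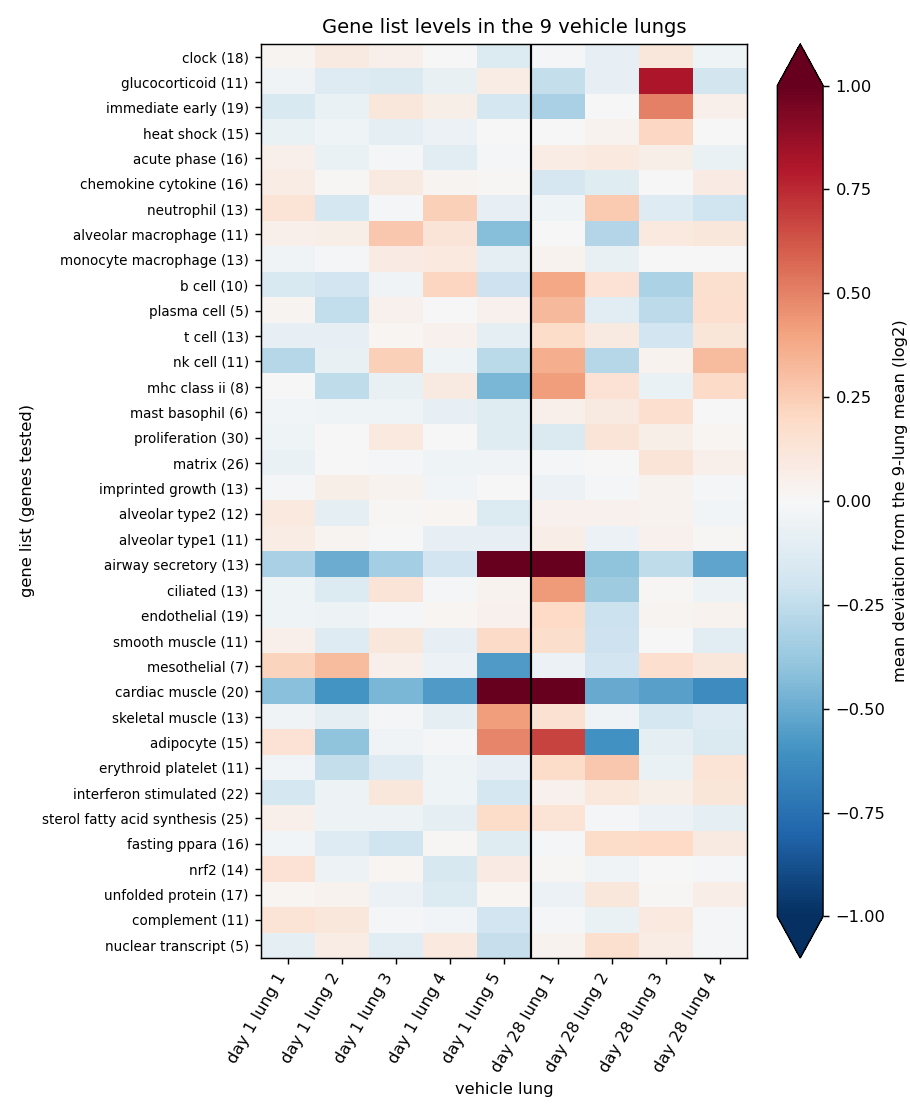
Mean deviation of each gene list from its mean over the 9 vehicle lungs in log2 units (colour, blue low and red high, limited at 1), with lists and their numbers of tested genes on the vertical axis and lungs on the horizontal axis, the black line dividing day 1 from day 28. Cardiac muscle and airway secretory genes are high in lungs 5 of day 1 and 1 of day 28, and glucocorticoid genes in lung 3 of day 28.

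Some genes differed widely between single lungs of the same day. Among 13309 genes well above background on all 9 arrays, the median SD within a vehicle group was 0.153, and 23 genes exceeded an SD of 1. Of the 12 genes with the largest SD, 5 are heart muscle genes: the troponins Tnni3 and Tnnt2, the atrial myosin light chains Myl4 and Myl7, and the sarcomere protein Myom2. Tnni3 had log2 ratios from -0.38 to 4.18 with a median of -0.13, and Myl7 from 2.81 to 6.47 with a median of 3.18. Another 4 are airway secretory products: Bpifa1, Bpifb1, Muc5b and Scgb3a1. Bpifa1 had the largest SD of all at 2.16, with log2 ratios from 0.063 to 5.51. The rest were Cfd, a serine protease of fat cells, Cyp2a5, an airway monooxygenase, and Cyp26b1, which degrades retinoic acid.

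The same pair of lungs was highest for 11 of these 12 genes, namely lung 5 of day 1 and lung 1 of day 28. That pair led for 3.40% of all genes ranked and for 19 of 20 genes of the cardiac muscle list. The mean level of that list was 2.17 and 1.55 above the 9-lung mean in these lungs and 0.42 to 0.63 below it in the other 7. The airway secretory list was 1.11 and 1.44 above its mean in the same lungs, and the adipocyte list 0.49 and 0.67 above. Each day held one of the pair. The day difference of the cardiac list had a median of -0.0087, which was -0.63 with slide as a fixed term and 0.12 without lung 2 of day 28. With both lungs left out no gene was called either, and 801 passed the unadjusted threshold. Day differences of the 12 genes ranged from -0.47 to 0.49.

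The exposed lungs varied in the same genes. The SD of Bpifa1 within the 12 exposed groups was 2.08, that of Tnni3 1.70 and that of Cfd 2.09. The median over the 13309 genes ranked was 0.211. Of the variation within groups, 29.2% lay between slides for Bpifa1 and 29.8% for Tnni3, beside 54.5% for the median gene and 25.9% for a gene with no slide effect.

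**Figure D4:**
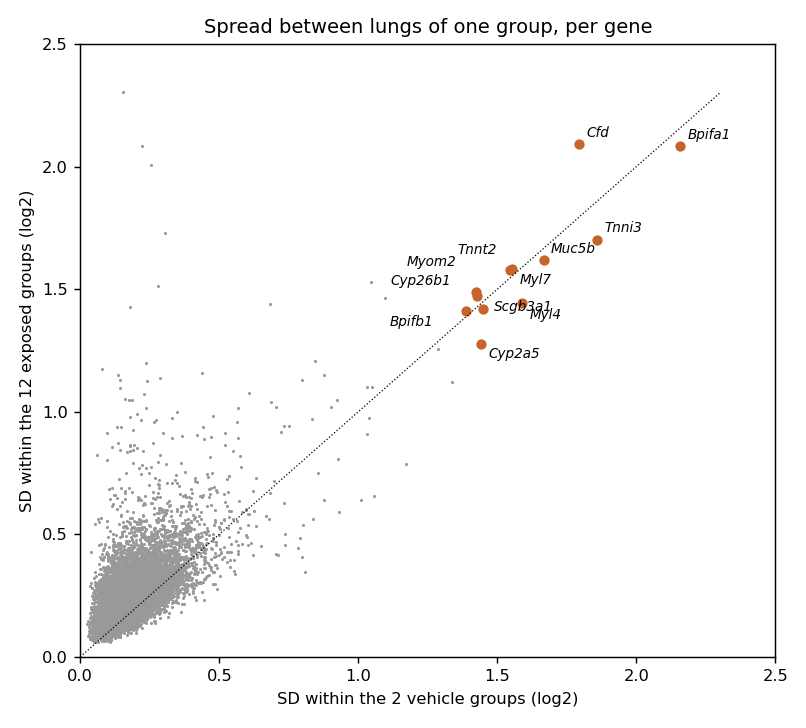
SD between lungs of one group in log2 units, within the 2 vehicle groups (horizontal axis) and within the 12 exposed groups (vertical axis), with 1 grey point per gene, orange for the 12 genes with the largest vehicle SD and a dotted line of equality. The orange genes reach 2.16 in vehicle lungs and lie near the line, so they were also variable in exposed lungs.

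Lung 3 of day 28 differed in another set of genes. The glucocorticoid list lay 0.81 above its 9-lung mean there and the immediate early list 0.50 above, whereas the other lungs lay between -0.23 and 0.073 for the former. Dusp1, a phosphatase induced by stress and steroids, had a log2 ratio of 2.68 in this lung and 0.10 to 1.40 in the other 8. Errfi1, a feedback inhibitor of the epidermal growth factor receptor, had 1.75 there and -0.38 to 0.22 elsewhere. Per1, a clock gene also induced by glucocorticoids, had 1.41 there and -0.89 to 0.39 elsewhere. Errfi1 and Per1 were picked after their values were seen.

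Lung 4 of day 28 lacked the signal of Xist, the RNA that coats and silences one X chromosome in female cells. Its log2 ratio was -3.61, and Xist was not well above background there, whereas the other 8 vehicle lungs had 0.41 to 1.01 and all other 68 arrays 0.25 to 1.11. All 4 Xist probes were lower in this lung than in any other vehicle lung. The Xist difference between days of -1.27 rested on it and was -0.25 without it. Tsix, the antisense partner of Xist, had -0.50 in this lung against 0.27 to 0.71 in the others. Genes that escape silencing were lowest in it too. Kdm6a had -0.15 against 0.42 to 0.78, Kdm5c -0.16 against 0.14 to 0.42, Ddx3x 0.014 against 0.13 to 0.55, and Eif2s3x -0.94 against -0.67 to -0.19. The median deviation of 631 genes of the X chromosome from the other 8 lungs was 0.0012, beside -0.0068 for autosomal genes. The Y chromosome genes Kdm5d and Uty were not well above background in any vehicle lung. These genes were picked after the Xist value was seen, and the cause was not tested.

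**Figure D5:**
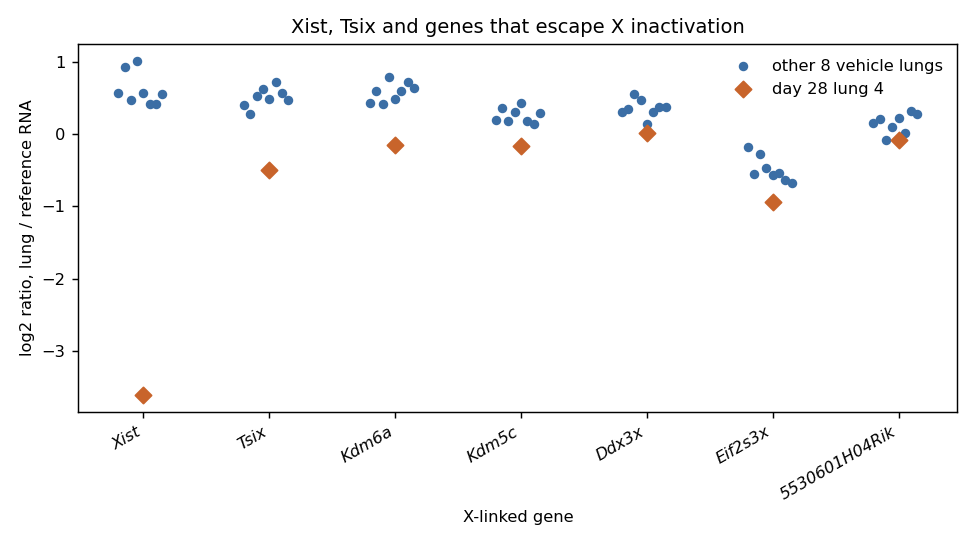
Log2 ratios of lung to reference RNA (vertical axis) of Xist, Tsix and 5 genes that escape X inactivation (horizontal axis) in lung 4 of day 28 (orange diamond) and the other 8 vehicle lungs (blue points). The diamond sits at -3.61 for Xist, and it is the lowest point for each of the 7 genes shown, by a narrow margin for 5530601H04Rik.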

How the data were processed

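Total lung RNA (Cy5) and universal mouse reference RNA (Cy3) were hybridised to 2-colour Agilent 4x44K arrays without dye swap, read with Agilent Feature Extraction 11.0.1.1. The deposited log2 ratios of the authors matched the scanner ratios with a slope of 1.00 without background subtraction, normalised within arrays, which compresses differences of dim probes. Scanner intensity values and the processed log10 ratios deposited by the authors, background-subtracted and dye-normalised by Feature Extraction, served for detection and alternatives. Of 41174 probes, 27479 (66.7%) were named by RefSeq accession. Probes well above background on at least 4 of 69 arrays were kept, and a gene took the median of its probes, which gave 17639 genes. All 69 arrays entered 14 group means in limma 3.58.1 (R 4.3.3), with Benjamini-Hochberg adjustment. The fit was tested on simulated data. Named genes were the called genes or, with under 5 called in a direction, the 5 with the smallest p, up to 2 per list by p, and the 12 with the largest SD within vehicle groups. The members, lists and rules were chosen with earlier results of these data known. Alternatives changed normalisation, filter, slide and scan day terms, and left out each lung.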

Additional observations from a re-analysis of the deposited data

Results flagged for a closer look

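Within each vehicle group the highest and lowest lungs were compared with their nearest neighbour by Dixon's criterion for 93 genes, or 186 groups of values, and 30 lay apart. Chance gives about 1 in 20, but the genes were partly chosen for their spread, and 14 of the 30 come from the 12 genes with the largest SD, so the number is no evidence of an excess. All values are log2 ratios. Lung 5 of day 1 held 11 of them: Bpifa1 at 5.26, Tnni3 at 4.18, Muc5b at 4.19, Myl4 at 3.29, Tnnt2 at 2.87, Myl7 at 6.47, Myom2 at 2.19, Bpifb1 at 2.98, Tff2 at 1.86 and Mybpc3 at -0.461 were high, and Igsf21 at -0.26 was low. Lung 1 of day 28 held 8, all high: Muc5b at 5.17, Myl4 at 2.77, Tnnt2 at 2.18, Myl7 at 6.39, Myom2 at 0.785, Bpifb1 at 2.98, Tff2 at 3.00 and H2-Ob at 1.96. Lung 2 of day 28 held 6, with Casp8 at 0.613, Dync1i2 at 0.547, Pdpn at 0.524 and Neat1 at 1.63 high and C1ra at -0.371 and Flt1 at 2.89 low. In lung 3 of day 28, Blk at 0.233 and Tcf7 at -1.51 were low. In lung 3 of day 1, Cmpk2 at 1.62 and Gzmb at 1.68 were high. Xist at -3.61 was low in lung 4 of day 28.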

How the results depend on the processing

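The count of 0 genes called between the vehicle days held under all alternatives run, with 261 to 1305 genes at an unadjusted p of 0.05 when single lungs were left out, 505 with slide as a fixed term and 1618 for vehicle lungs alone. The count of 199 genes for 18 ug lungs was 128 with processed scanner signals, 9 with median centring, 57, 405 and 1589 with slide fixed, slide random and scan day terms, 86 for these groups alone, 1652 over all doses, 111 to 249 without single lungs, and, chosen after seeing the data, 3 on slides without a vehicle array and 2 there with slide as a term. The difference in day effect gave 1 gene with slide as a random term and 0 to 1 without single lungs. Of the 12 most variable genes, 7 remained with processed scanner signals, 7 with no filter, and 9 to 12 without single lungs. Igsf21 was -0.011 with median centring. The causes were not tested. No paired analysis was possible because replicate numbers follow accession order. Dim probes are compressed, and the number of arrays limits precision.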

Other observations

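Lung 5 of day 1 also stood alone in genes of no list, picked after their values were seen. Creb3l3, a transcription factor of lipid metabolism, had a log2 ratio of 2.54 there and -0.57 to 0.66 in the other 4 lungs of day 1. Cpb2, a plasma carboxypeptidase, had 1.88 against -1.72 to -0.38, and Terc, the RNA of telomerase, 2.35 against -0.10 to 0.46. The 3 exposed lungs on the same slide lay -0.25 to 0.38 from their own group means for Creb3l3 and 0.025 to 0.78 for Cpb2.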
